A study of Homo sapiens with 5 samples.

Results

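The 10 genes described here are the stress-inducible brakes on the growth kinase complex mTORC1 and the core of the switch on which they act: SESN1, SESN2, SESN3, DDIT4, TSC1, TSC2, RHEB, MTOR, RPTOR and DEPTOR. They were taken by symbol from a count table of 18257 genes, and all 10 were among the 12234 genes that passed the filter on low counts, at least 1 CPM in no fewer than 2 of the 5 libraries (CPM is the read count of a gene brought to a common library size with TMM scaling). The set was chosen by the levels of these genes in all 5 libraries, including the opposite course of SESN2 and SESN3, so the levels and differences of the 10 genes are given as a description and carry no test.

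The libraries are poly(A) RNA of HEK293, a human embryonic kidney cell line, in its T-REx Flp-In form with a FLAG-tagged DICER1 insert, a background that every library shares. Cells were taken 18 h after transfection with siRNA 1 or siRNA 2 against DICER1 (1 library each), with siRNA 1 or siRNA 2 against DROSHA (1 library each), or after mock transfection (1 library). None of the 5 libraries is labelled with a non-targeting siRNA. In a difference from the mock, loss of the target and the presence of an siRNA therefore cannot be told apart. DROSHA is the nuclear nuclease that releases microRNA precursors and DICER1 is the cytoplasmic nuclease that cuts them to mature microRNAs. The siRNA sequences are not used here, and separate cultures are not stated in the labels, so errors measure the spread between these libraries only.

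Sestrins are stress-induced proteins that restrain mTORC1: SESN2 is induced by ATF4 and senses leucine by binding GATOR2, and SESN3 is known as a FOXO target. DDIT4 (REDD1) is induced by hypoxia, glucocorticoids and endoplasmic reticulum stress and restrains mTORC1 through the TSC complex. TSC1 stabilises TSC2, the GTPase-activating protein that switches off RHEB, the small GTPase that activates mTORC1, in which MTOR is the kinase, RPTOR the scaffold that recruits substrates and DEPTOR an inhibitory subunit.

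Total counts lay between 7620206 and 8736455 per library. DICER1 mRNA fell to 74.0 and 67.7 CPM in the DICER1 siRNA libraries, against 243 CPM in the mock, and DROSHA mRNA fell to 41.2 and 41.9 CPM in the DROSHA siRNA libraries, against 191 CPM in the mock. Each was called in its own comparison by edgeR's quasi-likelihood test, at a Benjamini-Hochberg adjusted p under 0.05 over all tested genes. The counts do not part reads of the endogenous DICER1 gene from those of the insert. Of the markers of HEK293 cells, VIM stood at 419 to 461 CPM, whereas NEFM (0.962 to 1.95 CPM) and PAX2 (2.04 to 4.40 CPM) were low. The leukocyte gene PTPRC, the fibroblast gene DCN and the kidney tubule genes UMOD and AQP2 had 0 reads in all 5 libraries. COL1A1, also a fibroblast gene, had 42 to 58 reads per library, and the other markers CD3E, ALB and NPHS1 had 0 to 4. NEFL, a neurofilament gene that HEK293 cells express, had 151 and 175 CPM in DICER1 siRNA libraries and 138 and 105 CPM in DROSHA siRNA libraries, against 128 CPM in the mock; its part in any difference below was not tested. The DROSHA siRNA 2 library stood apart from the rest, with a chi-square per degree of freedom of 7.45 to 9.62 against each other library, where pairs without it reached 5.85 at most.

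The promoters of SESN2, SESN3 and DDIT4, the 3 genes with the widest differences among the well-counted members, are shown first, since SESN2 and DDIT4 were high where SESN3 was low. Each runs from 250 bases before to 50 bases after the annotated start, 5′ to 3′ on the gene's own strand, from RefSeq on GRCh38.p14; the submitters' notes name hg19, and no coordinate was carried between the builds. Capitals mark ACGTG, a form of the core of the hypoxia response element, and no other form of it was searched for. The windows are chr1:28259268-28259567 (plus strand) for SESN2, chr11:95232426-95232725 (minus strand) for SESN3 and chr10:72273674-72273973 (plus strand) for DDIT4.
SESN2: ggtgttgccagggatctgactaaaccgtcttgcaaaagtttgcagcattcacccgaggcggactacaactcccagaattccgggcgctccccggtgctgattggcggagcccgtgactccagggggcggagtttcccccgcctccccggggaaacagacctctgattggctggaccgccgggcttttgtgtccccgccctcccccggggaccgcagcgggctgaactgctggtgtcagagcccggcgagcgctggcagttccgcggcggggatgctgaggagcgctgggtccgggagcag
SESN3: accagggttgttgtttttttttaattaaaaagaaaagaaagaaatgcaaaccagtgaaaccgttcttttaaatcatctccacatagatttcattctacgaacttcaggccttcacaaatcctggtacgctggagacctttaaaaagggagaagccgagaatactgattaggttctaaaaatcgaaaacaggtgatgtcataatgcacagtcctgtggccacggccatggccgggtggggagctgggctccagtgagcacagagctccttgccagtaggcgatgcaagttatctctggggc
DDIT4: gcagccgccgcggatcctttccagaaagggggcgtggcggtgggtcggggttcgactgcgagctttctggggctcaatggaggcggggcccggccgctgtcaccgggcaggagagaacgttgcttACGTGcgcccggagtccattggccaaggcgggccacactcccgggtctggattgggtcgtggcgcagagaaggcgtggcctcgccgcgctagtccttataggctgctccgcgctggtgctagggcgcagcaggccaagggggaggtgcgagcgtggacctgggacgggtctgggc

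Promoters of 9 of the 10 genes, all but DEPTOR, were searched on both strands for 3 motifs. TGATGNAA, the ATF4 and C/EBP composite element, was in 3.62% of 35116 human promoter windows of 300 bases. TGTTTAC, the FOXO element, was in 3.42% of them, and ACGTG in 21.4%. None of the 3 motifs occurred in the SESN1, SESN2 or SESN3 windows. ACGTG began 125 bases before the start of DDIT4, 113 bases before that of TSC2, where the letters also read on the other strand, and 81 bases before that of RHEB, on the other strand only. TGATGNAA occurred only in TSC2 among the 9 genes, where it overlaps ACGTG, at chr16:2047865-2047892 (plus strand), with the composite element in capitals below. A match is a description of the letters and not a binding site, and a window without a match says only that these letters are not in it.
TSC2: ccccgtcacgTGATGCAAggatcgccgg

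Because both siRNA targets make microRNAs, mature sequences of 4 abundant human microRNAs are shown with the seed (bases 2 to 8) in capitals, from RefSeq on GRCh38.p14. The 4 seeds differ from one another, so each microRNA stands for its own family. Neither microRNAs nor Dicer products were measured in these libraries.
hsa-let-7a-5p: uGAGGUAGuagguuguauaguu
hsa-miR-17-5p: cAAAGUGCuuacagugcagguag
hsa-miR-92a-3p: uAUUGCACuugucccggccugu
hsa-miR-16-5p: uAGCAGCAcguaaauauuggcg

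The 3′ UTRs of the 10 genes (GENCODE 29 on GRCh38, 1 transcript per gene) were searched for the 7 bases complementary to each seed. SESN3 has by far the longest, 7742 nt against 1689 nt in SESN2 and 1107 nt in SESN1, and it held at least 1 match to each of the 4 microRNAs. Shown in capitals with 10 bases on each side, on the minus strand of chromosome 11, are its let-7 match (chr11:95168546-95168572), its miR-17 match (chr11:95165673-95165699), the first of its 2 miR-92a matches (chr11:95173084-95173110) and its miR-16 match (chr11:95172409-95172435), followed by the single miR-17 match of SESN2 (chr1:28282076-28282102, plus strand).
SESN3 let-7: ttgctctcctCTACCTCatccccaaag
SESN3 miR-17: attcataactGCACTTTttatgacatt
SESN3 miR-92a: cggctgtaatGTGCAATgatgtgtttt
SESN3 miR-16: gtgctcacagTGCTGCTtacagttcat
SESN2 miR-17: ccgattccagGCACTTTctgtagcaaa

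SESN2 also held 2 overlapping miR-16 matches, SESN1 held 1, DEPTOR held 1, and TSC1 held 1 let-7, 1 miR-92a and 3 miR-16 matches, while DDIT4, TSC2, RHEB, MTOR and RPTOR held none of the 4. Over 11273 tested genes with a 3′ UTR, 10.1% held the let-7 match, 22.5% the miR-17 match, 11.5% the miR-92a match and 22.4% the miR-16 match. Among the 225 genes with a 3′ UTR at least as long as that of SESN3, the shares were 44.4%, 83.1%, 51.6% and 67.6% in the same order. Each match of SESN3, taken singly, is thus common for a 3′ UTR of its length. The share of genes with all 4 was not counted. In these libraries SESN3, which held all 4, was lower with DICER1 siRNA and higher with DROSHA siRNA than in the mock.

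Of the 10 genes, 0 passed edgeR's quasi-likelihood test in DICER1 against mock, where 0.00817% of all tested genes did, and 7 lay above the mock in both DICER1 siRNA libraries, which 36.7% of all tested genes did. SESN3 and RHEB lay below it in both, as did 36.4% of all tested genes. In DROSHA against mock 0 passed (0.00817% of all tested genes), 6 lay above the mock in both libraries (31.5% of all tested genes) and 2, MTOR and RPTOR, below it (32.4% of all tested genes). In DICER1 against DROSHA 0 passed (0.0163% of all tested genes), 5 were higher in both DICER1 libraries than in both DROSHA libraries (20.9% of all tested genes) and 2, SESN3 and RHEB, were lower (20.0% of all tested genes). The median log2 difference over the 10 genes was 0.19, 0.12 and 0.09 in the 3 comparisons in that order, and over all tested genes it was 0.000538, -0.00488 and 0.00416. The edgeR likelihood ratio test called SESN2, SESN3 and DDIT4 in DICER1 against mock, among 29 calls over all tested genes. It called SESN2, SESN3 and DDIT4 in DICER1 against DROSHA too, among 130 calls. In DROSHA against mock it called none of the 10, with 3 calls over all tested genes. DESeq2 called SESN3 alone of the 10, in DICER1 against DROSHA, among 24 calls over all tested genes. These values chose the genes, so nothing is read from the counts or from the calls, and the first 2 comparisons share the single mock library.

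**Figure D1:**
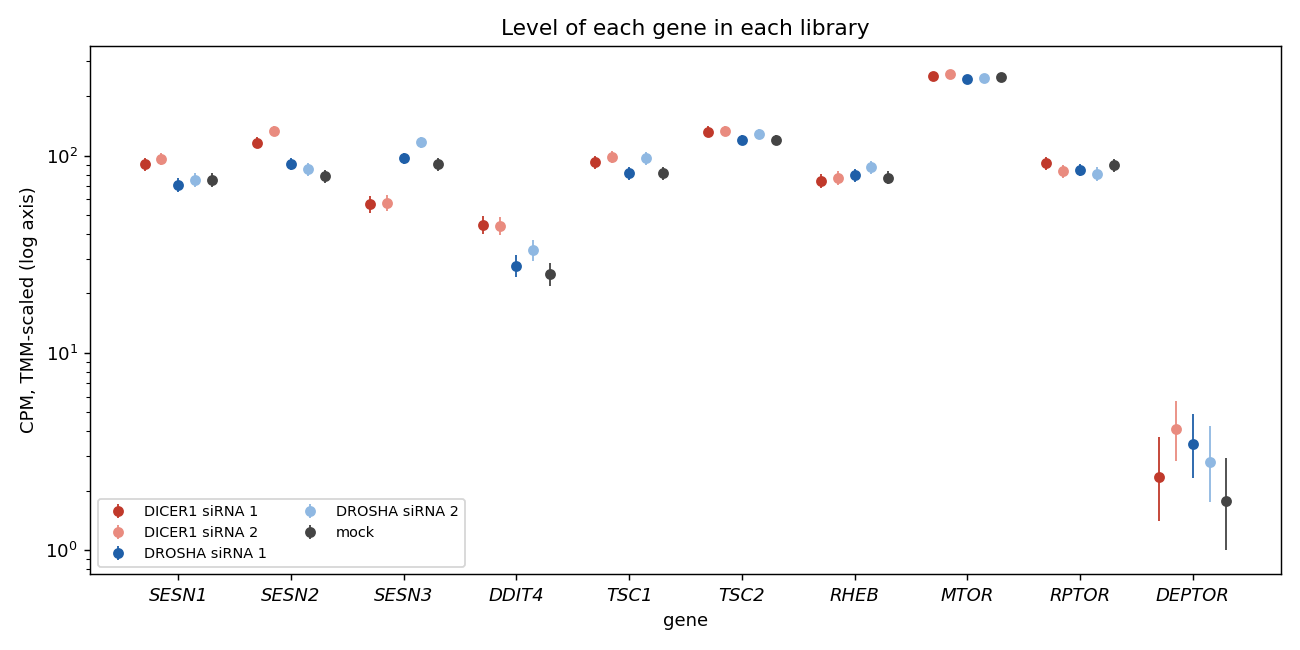
Level of each of the 10 genes (x axis) in CPM on a log axis in each library, DICER1 siRNA 1 and 2, DROSHA siRNA 1 and 2 and mock from left to right; bars are 95% exact Poisson intervals and cover counting error only. SESN2 and DDIT4 are highest and SESN3 lowest in the DICER1 siRNA libraries, MTOR lies between 245 and 261 CPM throughout, and DEPTOR lies under 5 CPM.

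SESN2 and SESN3 lay on opposite sides of the mock with DICER1 siRNA. SESN2, the leucine-sensing sestrin, had 116 and 134 CPM in DICER1 siRNA libraries 1 and 2 and 90.4 and 85.2 CPM in DROSHA siRNA libraries 1 and 2, against 78.4 CPM in the mock. Its level was thus highest in both DICER1 libraries, with the DROSHA libraries between them and the mock and no overlap between groups. The log2 difference was 0.67 ± 0.12 (SE) in DICER1 against mock, 1.59-fold, 0.16 ± 0.12 in DROSHA against mock, and 0.51 ± 0.10 between the DICER1 and DROSHA libraries. At least as large a difference was seen in 3.14% of all tested genes in DICER1 against mock and in 35.1% in DROSHA against mock, so the DROSHA value lies well within the common run of genes.

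SESN3, the FOXO-linked sestrin, had 56.6 and 57.6 CPM in DICER1 siRNA libraries and 96.8 and 117 CPM in DROSHA siRNA libraries, against 90.2 CPM in the mock. Both DICER1 libraries lay below every other library, and both DROSHA libraries lay above the mock. The log2 difference was -0.66 ± 0.13 in DICER1 against mock, 0.633-fold, and 0.24 ± 0.13 in DROSHA against mock. In DICER1 against DROSHA, where the displacements from the mock run in opposite directions, it was -0.90 ± 0.11, 0.536-fold, a size reached by 1.10% of all tested genes. Over the 3 sestrins and DDIT4 this was the largest of the 12 differences.

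SESN1, the third sestrin, followed SESN2 on a smaller scale. It had 90.3 and 95.9 CPM in DICER1 siRNA libraries and 71.0 and 75.2 CPM in DROSHA siRNA libraries, against 75.1 CPM in the mock. The DICER1 libraries lay above the rest, and the DROSHA libraries lay on either side of the mock. Its log2 difference was 0.31 ± 0.11 in DICER1 against mock, a size that 15.3% of all tested genes reached, and -0.04 ± 0.11 in DROSHA against mock.

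With SESN2 and SESN3 on opposite courses, the sestrin transcripts differed in make-up. SESN2 supplied 67.2% and 69.9% of the summed SESN2 and SESN3 reads in DICER1 siRNA libraries (95% Clopper-Pearson intervals 64.6% to 69.8% and 67.6% to 72.1%, counting error only). It supplied 48.3% and 42.2% in DROSHA siRNA libraries (45.8% to 50.7% and 39.8% to 44.7%), against 46.5% in the mock (43.9% to 49.1%). The DICER1 intervals lay clear of all others, whereas those of both DROSHA siRNA libraries overlapped the mock's. The intervals of DROSHA siRNA 1 and 2 did not overlap each other either, so counting-error intervals also part libraries with the same target. Per gene this is 2.05 and 2.32 SESN2 reads for each SESN3 read in DICER1 siRNA libraries and 0.934 and 0.731 in DROSHA siRNA libraries, against 0.870 in the mock. The log2 fold change of SESN2 minus that of SESN3 was 1.33 in DICER1 against mock and -0.08 in DROSHA against mock; the second turned to 0.10 without DROSHA siRNA 2.

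Levels of different genes can be set side by side only per length of transcript. On the scale of CPM per kb, SESN3 made up 9.07% and 8.36% of the summed level of the 3 sestrins in DICER1 siRNA libraries and 17.9% and 20.9% in DROSHA siRNA libraries, against 17.6% in the mock. Its share was thus smallest with DICER1 siRNA. SESN2 made up 51.6% and 53.7% in DICER1 siRNA libraries and 46.3% and 42.3% in DROSHA siRNA libraries, against 42.4% in the mock. The share of SESN1 lay between 35.8% and 40.0% throughout. The summed level was 65.3 and 72.1 CPM per kb in DICER1 siRNA libraries and 56.5 and 58.3 CPM per kb in DROSHA siRNA libraries, against 53.6 CPM per kb in the mock. Without division by length the DICER1 and DROSHA libraries overlapped. The summed sestrin reads were then 263 and 287 CPM in DICER1 siRNA libraries and 258 and 277 CPM in DROSHA siRNA libraries, against 244 CPM in the mock. In a bulk library, a change in the number of cells that carry a transcript and a change in its amount per cell cannot be told apart.

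**Figure D2:**
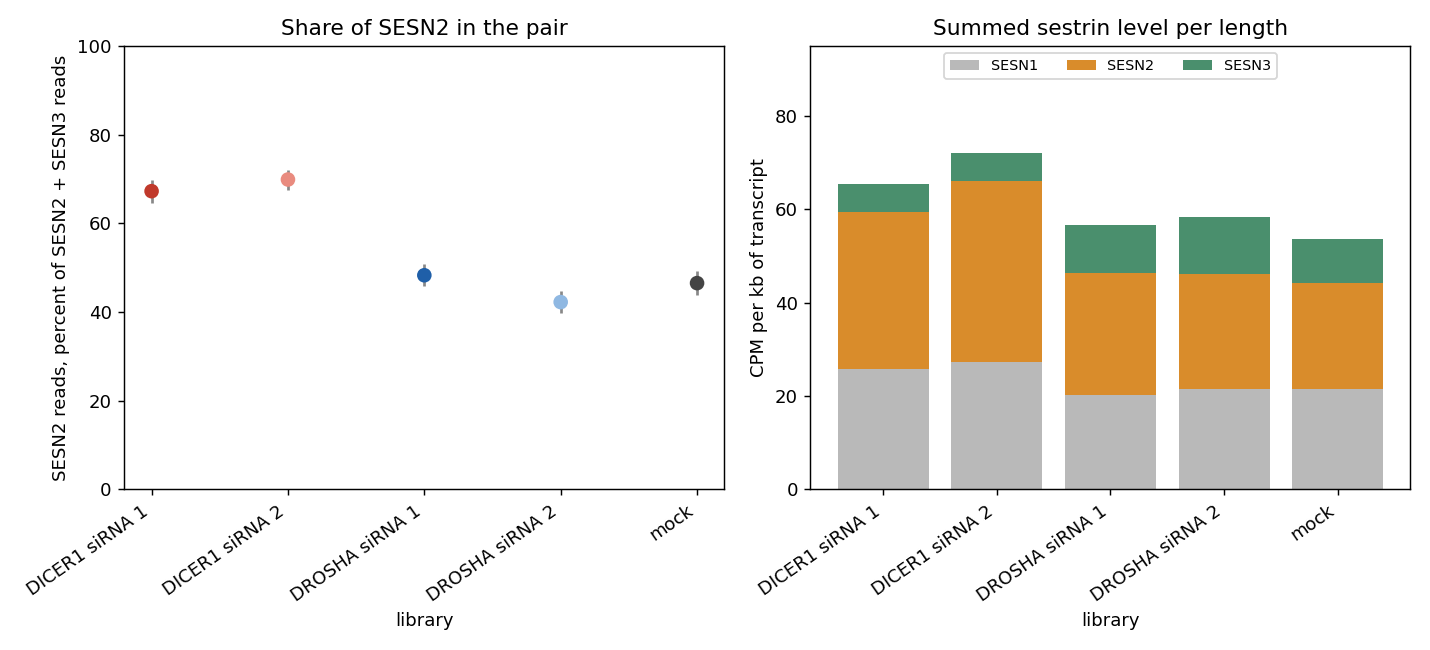
Left, SESN2 reads as a percent of SESN2 plus SESN3 reads in each library, with 95% Clopper-Pearson bars; right, the summed level of the 3 sestrins in CPM per kb of transcript, stacked by gene. The DICER1 siRNA libraries stand at 67.2% and 69.9% and all other libraries under 49%, and the SESN3 segment is narrowest in the DICER1 siRNA libraries.

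DDIT4, the inducible activator of the TSC brake, lay above the mock in all 4 siRNA libraries, as SESN2 did. It had 44.6 and 43.9 CPM in DICER1 siRNA libraries and 27.6 and 33.2 CPM in DROSHA siRNA libraries, against 25.1 CPM in the mock. The groups did not overlap, and the DROSHA libraries lay between. The log2 difference was 0.82 ± 0.15 in DICER1 against mock, 1.76-fold and reached by 1.92% of all tested genes, 0.28 ± 0.16 in DROSHA against mock, and 0.54 ± 0.12 between the DICER1 and DROSHA libraries. These values rest on 341 and 365 reads in DICER1 siRNA libraries and 241 and 261 reads in DROSHA siRNA libraries, against 211 reads in the mock. The exons of DDIT4 overlap the antisense gene DDIT4-AS1 over 847 nt, 41.2% of their length, and no source used here gives the strand setting of the counting, so the reads of this overlapping pair cannot be told apart.

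Within a pair, the 2 siRNAs to the same target did not always give the same level. The level with siRNA 2 over that with siRNA 1 was 1.15 for SESN2 in the DICER1 pair (95% interval 1.05 to 1.26, counting error only). In the DROSHA pair it was 1.20 for SESN3 (1.10 to 1.32), 1.20 for DDIT4 (1.01 to 1.44) and 1.19 for TSC1 (1.07 to 1.32). The other 16 pair ratios of the 10 genes had intervals that hold 1. The low SESN3 level and the high DDIT4 level were thus close with both DICER1 siRNAs. Without DROSHA siRNA 2, the library that stands apart, the log2 difference in DROSHA against mock was 0.11 for SESN3 and 0.14 for DDIT4, and without DROSHA siRNA 1 it was 0.37 and 0.40 in that order. In DICER1 against DROSHA without DROSHA siRNA 2 it was -0.76 for SESN3 and 0.68 for DDIT4.

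TSC1 and TSC2, the subunits of the complex through which DDIT4 acts, stood close to the mock. TSC1 had 92.6 and 98.5 CPM in DICER1 siRNA libraries and 81.2 and 96.8 CPM in DROSHA siRNA libraries, against 81.5 CPM in the mock. TSC2 had 132 and 133 CPM in DICER1 siRNA libraries and 120 and 129 CPM in DROSHA siRNA libraries, against 120 CPM in the mock. Both genes were above the mock in both DICER1 libraries, by 0.23 ± 0.13 for TSC1 and 0.15 ± 0.09 for TSC2 on the log2 scale, and the DICER1 and DROSHA values of TSC1 overlapped. TSC2 exons overlap those of PKD1 (778 nt) and NTHL1 (402 nt) on the other strand, both of which are in the count table.

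The switch itself and the kinase complex were nearly level. RHEB, the GTPase, had 74.3 and 77.2 CPM in DICER1 siRNA libraries and 79.4 and 87.0 CPM in DROSHA siRNA libraries, against 77.2 CPM in the mock, a log2 difference of -0.03 ± 0.11 in DICER1 against mock and 0.11 ± 0.11 in DROSHA against mock. The DICER1 siRNA 2 library was level with the mock to 3 digits. MTOR, the kinase, had 253 and 261 CPM in DICER1 siRNA libraries and 245 and 248 CPM in DROSHA siRNA libraries, against 249.9 CPM in the mock, a log2 difference of 0.04 ± 0.08 in DICER1 against mock and -0.02 ± 0.08 in DROSHA against mock. RPTOR, the scaffold, had 91.4 and 83.2 CPM in DICER1 siRNA libraries and 84.3 and 80.8 CPM in DROSHA siRNA libraries, against 89.1 CPM in the mock, a log2 difference of -0.03 ± 0.11 in DICER1 against mock and -0.11 ± 0.11 in DROSHA against mock. Each of these 6 differences was no more than about its standard error, and differences at least as large as those of RHEB, MTOR and RPTOR in DICER1 against mock were seen in 86.0%, 81.3% and 85.1% of all tested genes in that order.

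DEPTOR, the inhibitory subunit, was barely detected, with 18 and 34 reads in DICER1 siRNA libraries and 30 and 22 reads in DROSHA siRNA libraries, against 15 reads in the mock. Its level was 2.35 and 4.09 CPM in DICER1 siRNA libraries and 3.44 and 2.80 CPM in DROSHA siRNA libraries, against 1.78 CPM in the mock. All 4 siRNA libraries lay above the mock, but the log2 differences of 0.86 ± 0.46 (DICER1) and 0.81 ± 0.46 (DROSHA) have the widest errors of the 10 genes, and the mock library holds too few reads to size them.

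**Figure D3:**
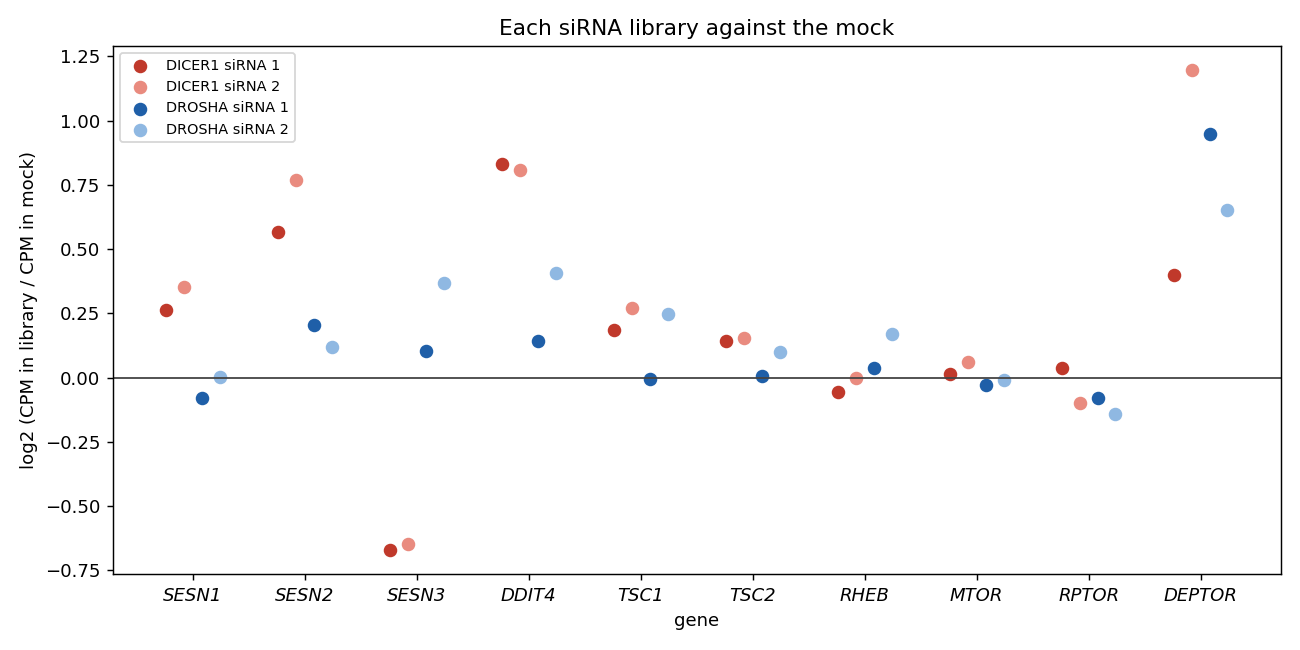
log2 of the CPM in each siRNA library over the CPM in the mock (y axis) for each gene (x axis), DICER1 siRNA libraries in red and DROSHA siRNA libraries in blue. SESN3 is the only gene with both DICER1 points below -0.5, SESN2 and DDIT4 have both DICER1 points above 0.5, and MTOR, RHEB, RPTOR and TSC2 lie within 0.25 of the zero line.

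Per kb of transcript and averaged over the 5 libraries, the level ran from RHEB at 38.1 CPM per kb through SESN2 at 29.2, MTOR at 29.0, SESN1 at 23.2, TSC2 at 20.6, DDIT4 at 20.0, RPTOR at 13.4, TSC1 at 10.5 and SESN3 at 8.74 to DEPTOR at 1.13. The order around SESN2 and MTOR depended on the library: SESN2 had 33.7 and 38.7 CPM per kb in DICER1 siRNA libraries and 26.2 and 24.7 CPM per kb in DROSHA siRNA libraries, against 22.7 CPM per kb in the mock, while MTOR stayed between 28.2 and 30.0 CPM per kb. DDIT4 likewise had 25.5 and 25.1 CPM per kb in DICER1 siRNA libraries, above TSC2, and 15.8 and 19.0 CPM per kb in DROSHA siRNA libraries and 14.3 CPM per kb in the mock, below TSC2. RHEB stood first in each library except DICER1 siRNA 2, where SESN2 did.

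The genes around the switch were followed through lists by role, and none of the tested genes of the lists below passed edgeR's quasi-likelihood test in any of the 3 comparisons. Of all tested genes, 36.7% were higher and 36.4% lower than the mock in both DICER1 libraries, and 31.5% were higher and 32.4% lower in both DROSHA libraries. The counts of each list are to be read against these shares, and none is called particular to its list. In both DROSHA libraries, 4 of 12 GATOR1, GATOR2 and KICSTOR genes were higher and 5 lower. Of 20 insulin and energy inputs 8 were higher and 5 lower, and of 8 mTORC1 and mTORC2 partners 3 and 1. Of 16 mTORC1 substrates and outputs 3 were higher and 6 lower, and of 12 FOXO genes and targets 5 and 6.

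Upstream of mTORC1, the amino acid branch on which SESN2 acts was centred near the mock. Of 12 GATOR1, GATOR2 and KICSTOR genes, 4 were higher and 4 lower in both DICER1 libraries (36.7% and 36.4% of all tested genes), with a median log2 difference of 0.00. SEC13, a GATOR2 subunit that also serves the COPII coat and the nuclear pore, was lowest at -0.33 ± 0.13, and DEPDC5, the GATOR1 subunit, highest at 0.16 ± 0.18. Of 11 Rag GTPase, Ragulator and folliculin genes, 6 were higher and 5 lower in both DICER1 libraries (36.7% and 36.4% of all tested genes), and 6 were higher and 0 lower in both DROSHA libraries (31.5% and 32.4% of all tested genes). FLCN, the activating protein for RagC and RagD, averaged 59.1 ± 1.62 CPM in DICER1 siRNA libraries and 54.7 ± 4.56 CPM in DROSHA siRNA libraries (SD, n = 2 each), against 44.4 CPM in the mock. SLC38A9, the lysosomal arginine sensor, averaged 21.1 ± 2.03 CPM in DICER1 siRNA libraries and 30.9 ± 0.0671 CPM in DROSHA siRNA libraries, against 27.0 CPM in the mock, so it lay on opposite sides of the mock with the 2 targets, as SESN3 did.

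Of 20 genes of the insulin and energy inputs, 10 were higher and 8 lower in both DICER1 libraries (36.7% and 36.4% of all tested genes). The largest displacements were those of 2 AMPK subunits, PRKAG2 at 0.45 ± 0.17 and PRKAA2 at -0.43 ± 0.15 (log2, DICER1 against mock). TBC1D7, the third subunit of the TSC complex, differed by -0.22 ± 0.17 in DICER1 against mock and -0.16 ± 0.17 in DROSHA against mock. Among 8 partners of mTORC1 and mTORC2, 5 were higher and 3 lower in both DICER1 libraries, beside the same shares of all tested genes. MLST8, the subunit common to both complexes, differed by -0.08 ± 0.11, TELO2, an assembly factor of MTOR-related kinases, by 0.13 ± 0.10, and PRR5, an mTORC2 subunit, by -0.41 ± 0.17.

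Downstream, of 16 mTORC1 substrates and outputs 7 were higher and 5 lower in both DICER1 libraries (36.7% and 36.4% of all tested genes), with a median of 0.02. RPS6, the ribosomal protein phosphorylated below mTORC1, averaged 1648 ± 19.6 CPM in DICER1 siRNA libraries and 1677 ± 29.0 CPM in DROSHA siRNA libraries (SD, n = 2 each), against 1602 CPM in the mock. LARP1, which binds mRNAs of the translation machinery, differed by -0.16 ± 0.08, EIF4E, the cap-binding protein, by -0.38 ± 0.20, and MAF1, the repressor of RNA polymerase III, by 0.26 ± 0.38 in DICER1 against mock. MAF1 averaged 120 ± 0.747 CPM in DICER1 siRNA libraries and 91.3 ± 47.4 CPM in DROSHA siRNA libraries, against 100 CPM in the mock. Its error thus takes in the spread of the DROSHA pair. These are mRNA levels, and mTORC1 acts on most of these proteins by phosphorylation, which was not measured.

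ATF4 is a known inducer of SESN2 and DDIT4. Of 16 genes in the ATF4 list 13 were higher and 1 lower in both DICER1 libraries (36.7% and 36.4% of all tested genes), with a median log2 difference of 0.21, and 7 were higher and 3 lower in both DROSHA libraries (31.5% and 32.4% of all tested genes), with a median of 0.08. ATF4 mRNA itself averaged 567 ± 41.7 CPM in DICER1 siRNA libraries and 499 ± 31.8 CPM in DROSHA siRNA libraries (SD, n = 2 each), against 520 CPM in the mock, log2 differences of 0.12 ± 0.09 and -0.06 ± 0.09. The highest target was CHAC1, which degrades glutathione, at 0.67 ± 0.38, and the lowest was NUPR1, a stress-response chromatin protein, at -0.14 ± 0.32. The list was put together with the ATF4 result of these libraries already known, so it is no independent evidence of its direction.

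Of 12 FOXO genes and targets, 7 were higher and 4 lower in both DICER1 libraries (36.7% and 36.4% of all tested genes), and SESN3, counted apart from the list, was lower. FOXO1 differed by -0.25 ± 0.13 in DICER1 against mock and -0.18 ± 0.13 in DROSHA against mock, FOXO3 by 0.08 ± 0.10 and 0.11 ± 0.10 in the same order, and TXNIP, an inhibitor of thioredoxin, by 0.55 ± 0.18 and 0.42 ± 0.19.

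Of 12 redox partners of the sestrins, 1 was higher and 7 lower in both DICER1 libraries (36.7% and 36.4% of all tested genes), and 1 was higher and 9 lower in both DROSHA libraries (31.5% and 32.4% of all tested genes). PRDX1, a peroxiredoxin, differed by -0.08 ± 0.07 in DICER1 against mock and -0.09 ± 0.07 in DROSHA against mock, and NFE2L2, the antioxidant transcription factor, by 0.15 ± 0.16 and 0.14 ± 0.16. Some values rest on 1 library of a pair: SQSTM1, an autophagy receptor, averaged 90.0 ± 44.1 CPM in DICER1 siRNA libraries, and PRDX3, a mitochondrial peroxiredoxin, 373 ± 337 CPM in DROSHA siRNA libraries, against 153 and 620 CPM in the mock in that order.

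**Figure D4:**
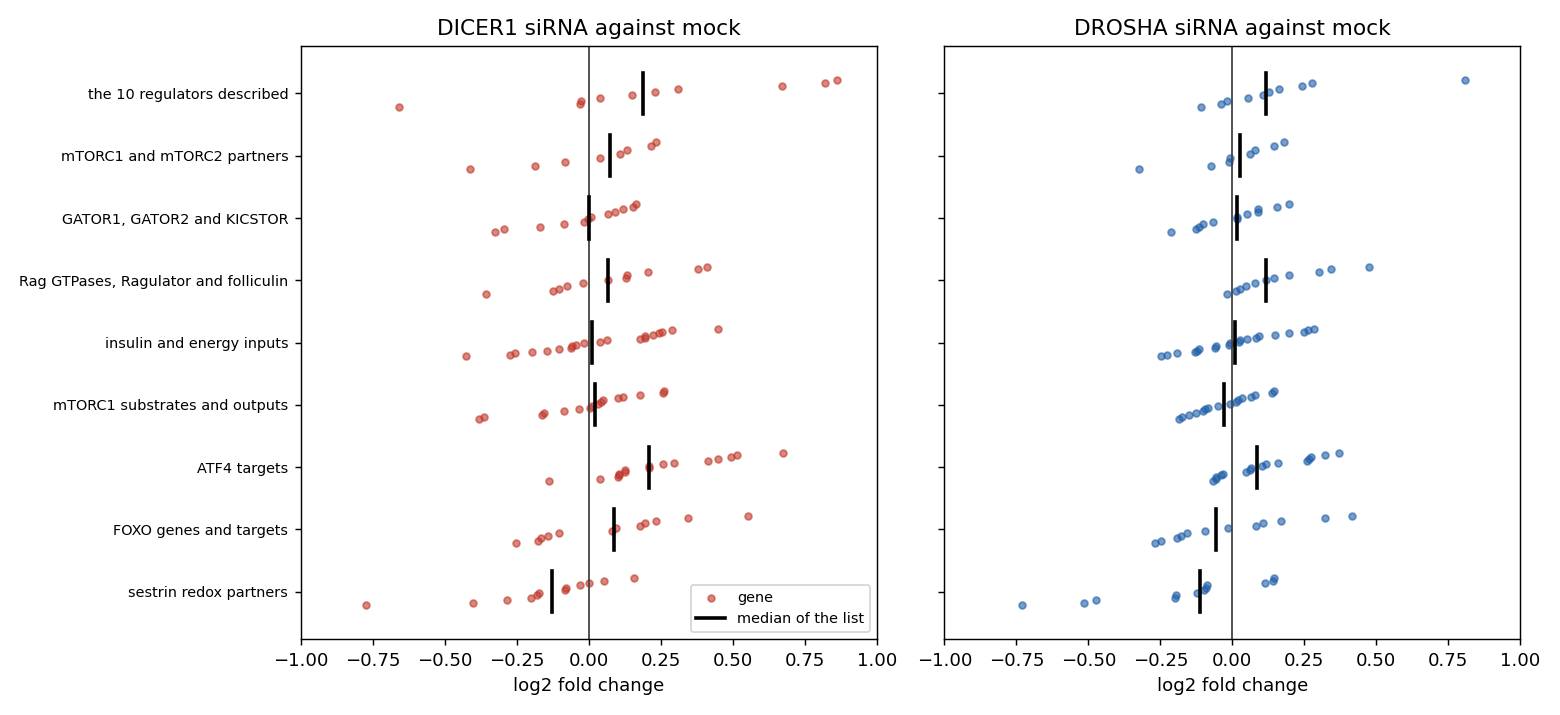
log2 fold change against the mock of every tested gene (points) in each list described with at least 2 tested genes, DICER1 siRNA on the left and DROSHA siRNA on the right, with the median of each list as a black bar. The ATF4 targets have a median of 0.21 with DICER1 siRNA and 0.08 with DROSHA siRNA, and the GATOR genes and mTORC1 outputs lie around zero in both panels.

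Genes whose course over the 4 siRNA libraries came closest to that of SESN2, SESN3 or DDIT4 were ranked by the root mean square difference of the log2 ratio to the mock, over the 10614 genes that averaged 5 CPM or more. The 4 points share 1 mock library. For SESN2 they were NEK8 (0.0823), ERBB3, CNNM2, DERL3 and FAM129A. For SESN3 they were PHTF2 (0.0972), NIPSNAP3A, ETV1, DENND5A and ZMAT3, and for DDIT4 they were CACNB3 (0.0805), RIC3, CA11, HERPUD1 and SKOR1. DERL3, near SESN2, and HERPUD1, near DDIT4, act in the degradation of misfolded endoplasmic reticulum proteins. The roles of the other genes near in course are not described here, and no shared role was tested.

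In earlier work on these libraries 3 7-mers were picked from them because genes that hold them in the 3′ UTR were low, AATCTAA in the DICER1 libraries and ATAGAAT and GTGACTT in a DROSHA library each. AATCTAA was in 0 of the 10 genes, the 7742 nt of SESN3 included, although 56% of the 225 genes with 3′ UTRs as long held it. It was in ETV1, DENND5A and ZMAT3 of the 5 genes nearest in course to SESN3, with 1 match each, and not in PHTF2 or NIPSNAP3A. It was also in CNNM2, one of the genes near in course to SESN2 and high in both DICER1 libraries, with 2 matches. The 3′ UTR of CNNM2 is 13041 nt, longer than that of SESN3. Of all 11273 genes scanned, 11.5% held AATCTAA. The 7-mer was picked for low genes in these same DICER1 libraries, so the matches among low genes are no support for it. SESN3 held 2 matches to ATAGAAT, which 13.3% of all scanned genes and 61.8% of those with 3′ UTRs as long hold, and 1 to GTGACTT, held by 13.5% and 56.9% in that order. Such matches are common at its length. The SESN3 level, above the mock in both DROSHA libraries, is no test of either 7-mer, as low genes of a DROSHA library led to each. SESN1 held 1 match to ATAGAAT. The 2 ATAGAAT matches of SESN3 (chr11:95168124-95168150 and chr11:95167306-95167332) and its GTGACTT match (chr11:95171712-95171738), minus strand, are shown with the 7-mer in capitals. What such matches do in these cells was not tested.
SESN3 ATAGAAT 1: cacatttctaATAGAATgacatatggc
SESN3 ATAGAAT 2: aataagatgaATAGAATttttgttatg
SESN3 GTGACTT: ttagttaaggGTGACTTgaattgtaca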

How the data were processed

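Poly(A) RNA of 5 HEK293 libraries was sequenced after a TruSeq preparation, per the labels' protocols. CASAVA 1.8.2, STAR, HTSeq, edgeR and hg19 are named, per the submitters' processing notes, with no role or order. The authors deposited raw read counts per gene symbol, with no normalization, and 0 columns were left unused. No source used here gives the strand setting.

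Starting from these counts, the filter of 1 CPM in 2 or more libraries kept 12234 genes with 99.9% of reads. TMM factors (0.990 to 1.00) and the quasi-likelihood test were computed with edgeR 4.0.16 (limma 3.58.1, R 4.3.3) in 1 fit over the 5 libraries, with no term but group. The mock is 1 library and is assumed to vary like the siRNA pairs, which give 2 residual degrees of freedom. The common biological coefficient of variation was 8.51%. Calls are Benjamini-Hochberg adjusted p under 0.05 over all tested genes. Standard errors are the log2 fold change over the square root of F. The steps were tested on simulated data.

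The 10 genes and the pathway lists were chosen with earlier results of these data known, and 1 list is not reported here. Named genes of a list are drawn from its 2 most abundant and its highest and lowest in DICER1 against mock. Not every such gene is named. Other genes named are the 10, the siRNA targets, ATF4, FOXO1, FOXO3, the 5 nearest in course to SESN2, SESN3 and DDIT4, and the markers. LAMTOR4 and LAMTOR5 were not matched under those symbols, and DDIT4L was under the filter. CPM per kb uses the protein-coding transcript with the longest coding sequence in GENCODE 29. No pair of libraries agreed within counting noise; chi-square per degree of freedom was 2.64 for the DICER1 pair, the lowest, 7.64 for the DROSHA pair, and 7.45 to 9.62 for every pair with DROSHA siRNA 2. Alternatives were RLE size factors, library totals without TMM, no CPM filter, DESeq2 1.42.0, the edgeR likelihood ratio test, a fit of the compared groups only, the siRNA number as a replicate block, leaving out each siRNA library, and shares per transcript length.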

Additional observations from a re-analysis of the deposited data

How the results depend on the processing

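Of 310 log2 values of the 10 genes recomputed over the alternatives, 5 changed sign, all where the main value was 0.13 or less in size. The largest value after such a change was -0.41, for DEPTOR in DICER1 against DROSHA without DICER1 siRNA 2. SESN2 lay between 0.57 and 0.77, SESN3 between -0.67 and -0.64 and DDIT4 between 0.80 and 0.84 in DICER1 against mock. In DROSHA against mock, SESN3 lay between 0.11 and 0.37 and DDIT4 between 0.14 and 0.40. DEPTOR lay between 0.40 and 1.19 in DICER1 against mock and between -0.41 and 0.38 in DICER1 against DROSHA. The SESN2 minus SESN3 difference lay between 1.24 and 1.42 in DICER1 against mock and between 1.23 and 1.58 in DICER1 against DROSHA. It lay between -0.25 and 0.10 in DROSHA against mock, where it turned its sign without DROSHA siRNA 2.

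The number of the 10 genes called, 0 in every comparison, became 3 (SESN2, SESN3 and DDIT4) with the edgeR likelihood ratio test in DICER1 against mock and in DICER1 against DROSHA. In DICER1 against DROSHA it was also 1 (SESN3) with no CPM filter and 1 (SESN3) with DESeq2, and it lay between 0 and 2 when 1 siRNA library was left out, with 2 without DROSHA siRNA 1 and 1 without DROSHA siRNA 2. In DROSHA against mock it was 0 throughout. Before adjustment, the quasi-likelihood test in edgeR gave 668, 451 and 1020 of all tested genes a p under 0.05 in DICER1 against mock, DROSHA against mock and DICER1 against DROSHA. Over all tested genes, calls in DICER1 against mock were 1, against 3 with no CPM filter, 5 with DESeq2, 29 with the likelihood ratio test, 4 with the compared groups only and 0 to 5 with 1 library left out. In DROSHA against mock they were 1, against 3 with the likelihood ratio test and 1 to 225 with 1 library left out. In DICER1 against DROSHA they were 2, against 12 with no CPM filter, 24 with DESeq2, 130 with the likelihood ratio test and 1 to 427 with 1 library left out. The highest counts came without DROSHA siRNA 1; the cause was not tested.

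The siRNA number does not pair the libraries: across 10615 genes the deviations of siRNA 1 from its group mean correlated at r = 0.0214 between the targets. With the replicate block, DICER1 against DROSHA had 4 calls over all genes and 0 among the 10.

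Per transcript length, the share of SESN2 in SESN2 plus SESN3 was 85.0% and 86.5% in DICER1 siRNA libraries and 72.1% and 66.9% in DROSHA siRNA libraries, against 70.6% in the mock. With 1 mock library, every difference from the mock carries that library's own deviation. DEPTOR, with 15 to 34 reads, is limited by depth.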
